A study of Mus musculus with 6 samples.

Results

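The genes described here encode the subunits of the mitochondrial respiratory chain and of its ATP synthase, read in mouse neural stem cells with and without signal from a reporter of Spot14. They were chosen by name alone. A probe set (the group of probes that reads a transcript) had to be annotated to exactly 1 gene whose symbol begins with Nduf, Uqcr, Cox4 to Cox8 or Atp5, or is Sdha, Sdhb, Sdhc or Sdhd. Of 18193 genes with such a probe set 90 qualified, through 179 probe sets, and the probe set of highest mean over the 6 arrays stands for each gene. They comprise 34 genes of complex I, 4 of complex II, 8 of complex III, 10 of complex IV, 8 tissue isoforms of complex IV, 17 of complex V and 9 assembly factors. Ndufa4 was counted with complex IV, to which it is now assigned, and Cox7a2l, which joins complexes III and IV, with the assembly factors. The test needed log2 4 or more on 3 or more of the 6 arrays, which 81 of the 90 genes reached. The 9 below that level were Ndufb1, Ndufb4 and 7 of the 8 tissue isoforms. Another 10 probe sets name such a gene together with a further gene and were not used, among them the probe sets of Ndufa11 and Ndufs6 and the brighter ones of Ndufb4.

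The respiratory chain sits in the inner mitochondrial membrane. Complex I takes electrons from NADH and complex II from succinate, both pass them to ubiquinone, complex III hands them on to cytochrome c, and complex IV gives them to oxygen. Complexes I, III and IV pump protons, and complex V, the ATP synthase, uses the gradient to make ATP. All but a few subunits are encoded in the nucleus, and in the adult brain quiescent neural stem cells, their dividing progeny and astrocytes are known to differ in how far they rely on respiration.

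Total RNA of mouse cells labelled as neural stem cells was hybridised to Affymetrix whole-genome mouse arrays, 3 from Spot14 GFP positive and 3 from Spot14 GFP negative cells. Thrsp, which encodes Spot14, is known as a thyroid hormone target in tissues that make fat, and the series' title places the comparison in the context of Fasn-dependent lipogenesis. Both groups are labelled by the reporter's GFP. The sequence driving GFP, the age and strain of the mice, and how cells were isolated, grown or separated are not given in the sources used here. Labels call the 3 arrays of a group biological replicates but name no animal or culture, so that p-values measure the spread between these samples. Values are log2 expression as deposited, made with GCRMA, and a difference is GFP positive minus GFP negative on that scale.

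No subunit of the respiratory chain passed the test between GFP positive and GFP negative cells. At an adjusted p under 0.05 by limma, a linear model moderated over all genes, 0 of 81 members were higher and 0 lower, while 2.35% of all 10531 genes tested were higher and 2.11% lower. With p left unadjusted (limma, under 0.05), 0 members were higher and 1 lower, where 9.92% and 8.28% of all genes tested were. The members' median difference was 0.01, with 42 above 0 and 39 below, and the median over all genes tested was 0.00. Single differences ran from −0.47 to 0.40, against −3.12 to 3.74 over all genes tested. The median absolute difference was 0.10 among members and 0.26 among all genes tested. These are bulk samples, in which fewer cells of a type and less RNA per cell cannot be told apart.

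The intervals set a limit to what these arrays could have missed. For 75 of 81 members (92.6%) the 95% interval of the difference lay inside a 2-fold change in either direction, which held for 62.7% of all genes tested. For 17 members (21.0%) it lay within 0.5 on the log2 scale, and for the others it reached beyond that. The 6 wider intervals belonged to Ndufaf3, Ndufaf6, Ndufaf8, Ndufa6, Uqcr11 and Cox6b2. The members' probe sets were bright: 48 of 81 (59.3%) had a mean of log2 12 or more, against 8.8% of all genes tested. Groups that did not overlap were found for 3 members, with GFP positive above in 1 (Cox7a2) and below in 2 (Cox7c and Ndufaf4). Over all genes tested the shares were 13.8% above and 11.5% below.

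**Figure D1:**
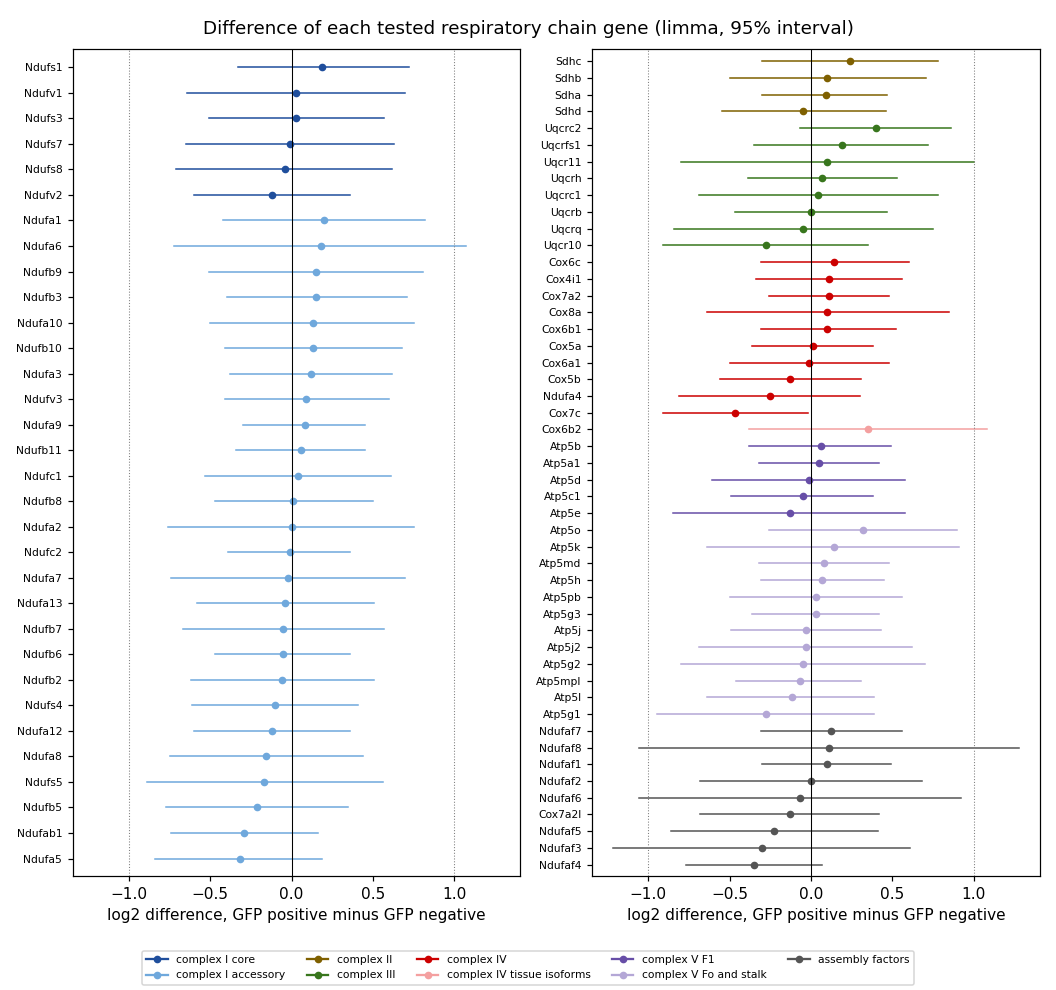
Difference in log2 value (GFP positive minus GFP negative, x axis) of each of the 81 tested genes (y axis), with its 95% limma interval from 3 arrays per group; colours give the class and dotted lines mark a 2-fold change. The points lie between −0.47 (Cox7c) and 0.40 (Uqcrc2), and 75 of the 81 intervals stay inside the dotted lines.

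Complex I, the NADH dehydrogenase and largest of the complexes, gave 32 tested genes with a median difference of −0.01, 15 above 0 and 17 below. Its 6 core subunits, which include those that carry the flavin and iron-sulfur clusters, had a median of 0.01 and ran from −0.12 to 0.19. Ndufs1, an iron-sulfur subunit that receives electrons from NADH oxidation, read 12.10, 11.83 and 11.78 in GFP positive and 11.54, 11.50 and 12.10 in GFP negative cells. Its groups overlapped because GFP negative replicate 3 matched the highest GFP positive array (difference 0.19, SE 0.22, limma adjusted p = 0.735). Ndufv2, an iron-sulfur subunit of the same arm, differed by −0.12 (SE 0.20). Ndufs7 and Ndufs8, which carry clusters on the way to ubiquinone, differed by −0.01 and −0.04.

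The 26 tested accessory subunits of complex I ran from −0.32 to 0.20, with 12 above 0 and 14 below. Ndufab1, the mitochondrial acyl carrier protein, which also serves fatty acid synthesis inside mitochondria, read 12.16, 12.14 and 12.02 in GFP positive and 12.43, 12.12 and 12.62 in GFP negative cells. The groups overlapped at GFP negative replicate 2, and the difference of −0.29 (SE 0.19, 95% interval −0.74 to 0.16, limma adjusted p = 0.512) did not pass. Ndufa5, a subunit of the arm that reduces ubiquinone, read 12.48, 12.60 and 12.27 against 12.58, 12.59 and 13.15. Only GFP negative replicate 3 lay apart (difference −0.32, limma adjusted p = 0.522). Ndufb5, of the membrane arm, differed by −0.21 (SE 0.24). Ndufc2, also of the membrane arm, had the highest mean of the class, at 14.59 ± 0.01 in GFP positive and 14.60 ± 0.09 in GFP negative cells (SD, n = 3 each).

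Complex II, succinate dehydrogenase, belongs both to the chain and to the TCA cycle, and its 4 subunits had a median difference of 0.10. Sdha, the flavoprotein, read 13.24, 13.27 and 13.45 in GFP positive and 13.15, 13.27 and 13.27 in GFP negative cells, a difference of 0.09 (SE 0.16, 95% interval −0.30 to 0.47). Sdhb, the iron-sulfur subunit, read 11.45, 11.52 and 11.37 against 11.31, 10.88 and 11.84, so that the GFP positive arrays lay inside the spread of the others (0.10, SE 0.26). The membrane anchors Sdhc and Sdhd differed by 0.24 (SE 0.23) and −0.05 (SE 0.21), and none of the 4 had a limma adjusted p under 0.664.

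Complex III, the cytochrome bc1 complex, gave 8 tested genes with a median difference of 0.06, 6 above 0 and 2 below. Uqcrc2, a core protein of its matrix side, had the largest positive difference of all members. It read 12.93, 13.34 and 13.22 in GFP positive and 12.93, 12.82 and 12.55 in GFP negative cells, so that the groups touched at the lowest GFP positive array. The difference of 0.40, or 1.32-fold (SE 0.20, 95% interval −0.07 to 0.86), did not pass (limma adjusted p = 0.359). Another probe set of Uqcrc2 gave 0.14. Uqcr10, a small membrane subunit, differed by −0.28 (SE 0.27), yet its other probe sets above the filter gave 0.24 and 0.32, the widest disagreement among the members. Uqcrfs1, the Rieske iron-sulfur protein that transfers electrons toward cytochrome c, differed by 0.19 (SE 0.23). Uqcrh, the hinge protein, had the highest mean of the complex and differed by 0.07 (SE 0.20).

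Complex IV, cytochrome c oxidase, gave 10 tested genes of the widely expressed forms with a median difference of 0.06, 6 above 0 and 4 below. Cox7c, a small membrane subunit, had the largest difference of all members and is the one with an unadjusted p under 0.05. It read 8.75, 8.69 and 8.91 in GFP positive and 9.26, 9.48 and 9.02 in GFP negative cells. All GFP positive arrays lay below all GFP negative ones, by 0.47 on average or 1.38-fold (SE 0.19, 95% interval −0.91 to −0.02, limma adjusted p = 0.247). The other probe set of Cox7c above the filter, which was dimmer, gave −0.05. With arrays weighted by their quality Cox7c passed (−0.63, SE 0.15, limma adjusted p = 0.029), in a fit where 5.73% of all genes tested were lower. That fit gave GFP negative replicate 3 a weight of 0.152. It gave GFP positive replicate 2 a weight of 8.35, against 0.833 and 1.22 for GFP positive replicates 1 and 3. The GFP positive values in it thus rest largely on 1 array. Cox7a2, another small subunit, read 14.34, 14.35 and 14.31 against 14.27, 14.14 and 14.25. Its groups did not overlap, but the difference was 0.11 (SE 0.16, limma adjusted p = 0.788). Ndufa4 read 11.84, 11.52 and 11.88 against 12.31, 11.59 and 12.11, a difference of −0.25 (SE 0.24) with overlapping groups. Cox6c, also a small nuclear-encoded subunit, differed by 0.14 (SE 0.19), and Cox4i1 and Cox6a1 by 0.11 and −0.01.

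Several subunits of complex IV have paralogs made in particular tissues, and the arrays read most of these near background. Cox4i2, known from lung and low oxygen, read 2.17 to 2.24 on all 6 arrays, and Ndufa4l2, which is induced by low oxygen, read 1.75 to 1.80. Cox7b2 (2.30 to 2.40) and Cox8c (1.73 to 1.78), both known from testis, were also at this floor. The heart and muscle forms were dim as well, though not flat. Cox7a1 read 3.84, 4.23 and 4.59 in GFP positive and 3.31, 3.65 and 3.97 in GFP negative cells, with overlapping groups. Cox6a2 and Cox8b lay under log2 4 on all arrays but GFP negative replicate 3, where they read 4.69 and 4.26. All GFP positive arrays of Cox8b (2.53 to 2.60) lay below the GFP negative ones, at a level near background. These 7 genes were tested only in a fit without the filter, where none passed and the lowest limma adjusted p was 0.443, for Cox7a1 (0.58, SE 0.26).

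Cox6b2, known as the testis form of the subunit that binds at the cytochrome c side, was the exception. It read 10.97, 10.82 and 10.87 in GFP positive and 10.35, 10.02 and 11.24 in GFP negative cells. GFP negative replicate 3 lay above and the other GFP negative arrays below all GFP positive ones, and the difference of 0.35 (SE 0.31) did not pass (limma adjusted p = 0.642). Without GFP negative replicate 3 it was 0.70 (SE 0.17, 95% interval 0.30 to 1.10), or past the threshold at a limma adjusted p of 0.0443, in a fit where 7.61% of all genes tested were higher. Cox6b2 has a single probe set here, and its widely expressed paralog Cox6b1 read 13.56 ± 0.11 and 13.46 ± 0.17 (SD, n = 3 each; difference 0.10, SE 0.18). Cox8a, the widely expressed partner of Cox8b and Cox8c, differed by 0.10 (SE 0.32).

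**Figure D2:**
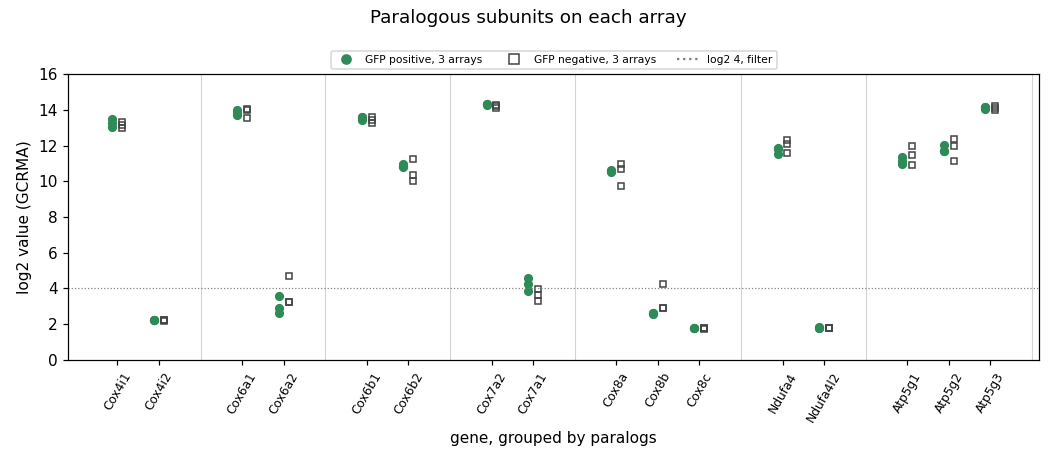
Log2 values (y axis) of paralogous subunits of complex IV and of the c subunit of complex V (x axis, grouped), with 1 point per array, circles for the 3 GFP positive and squares for the 3 GFP negative arrays; the dotted line is the filter at log2 4. The tissue isoforms lie near or under the line except Cox6b2, which read 10.02 to 11.24; levels of different genes come from different probes and are not compared.

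Complex V, the ATP synthase, gave 17 tested genes with a median difference of −0.01, 8 above 0 and 9 below. In the catalytic F1 head the differences ran from −0.13 to 0.06. Atp5a1 and Atp5b, the α and β subunits that form the catalytic ring, differed by 0.05 (SE 0.16) and 0.06 (SE 0.19). Atp5c1, the rotating γ subunit, differed by −0.05, and Atp5e, the ε subunit, by −0.13 (SE 0.31). Atp5o, part of the stalk that holds the head in place, had the largest difference of the complex. It read 13.94, 14.61 and 14.64 in GFP positive and 14.23, 14.17 and 13.83 in GFP negative cells, so that GFP positive replicate 1 fell among the GFP negative arrays (0.32, SE 0.25, limma adjusted p = 0.583). A second probe set of Atp5o gave 0.06.

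The c subunit, which forms the rotor ring in the membrane, is encoded by 3 genes that differ in their targeting sequence. Atp5g1 read 11.39, 11.15 and 11.00 in GFP positive and 11.48, 10.92 and 11.98 in GFP negative cells, a difference of −0.28 (SE 0.29, limma adjusted p = 0.687). Atp5g2 differed by −0.05 (SE 0.32), with GFP negative arrays spread from 11.16 to 12.40. Atp5g3 read 14.06, 14.17 and 14.15 against 14.11, 13.98 and 14.21 (0.03, SE 0.16, 95% interval −0.36 to 0.42). For all 3 the GFP positive arrays lay inside the range of the GFP negative ones. Atp5k, a membrane subunit at the interface between synthase dimers, differed by 0.14 (SE 0.33).

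The 9 assembly factors had a median difference of −0.07, 3 above 0 and 6 below, from −0.35 to 0.12. Ndufaf4, which acts in building the ubiquinone arm of complex I, read 8.96, 9.27 and 9.30 in GFP positive and 9.45, 9.62 and 9.50 in GFP negative cells. The groups did not overlap, but the difference of −0.35 (SE 0.18, 95% interval −0.77 to 0.07) did not pass (limma adjusted p = 0.374). Ndufaf3, its partner in that step, read 7.96, 7.51 and 6.93 against 7.50, 7.29 and 8.53, with wide overlap (−0.30, SE 0.39). Ndufaf5, which modifies Ndufs7, differed by −0.23 (SE 0.27), and Cox7a2l by −0.13 (SE 0.24).

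The spread of the members within the GFP negative group, with a median SD of 0.34, was wider than their differences between the groups, with a median absolute size of 0.10. GFP negative replicate 3 was the highest array for 52 of 81 members (64.2%, against 37.1% of all genes tested), and GFP negative replicate 2 was the lowest for 52 (64.2%, against 18.9%). Both held for 42 members, or 51.9%, against 8.6% of all genes tested. For 50 members (61.7%) all 3 GFP positive arrays lay inside the range of the GFP negative ones, against 33.9% of all genes tested. Relative to each gene's mean, the members had medians of 0.11, 0.01 and −0.08 over GFP positive replicates 1 to 3. Over GFP negative replicates 1 to 3 these were −0.03, −0.31 and 0.34. Over all genes tested the GFP negative medians were −0.08, −0.01 and 0.11. The median SD of a member was 0.15 among GFP positive and 0.34 among GFP negative arrays, and 0.17 and 0.36 over all genes tested. These shares describe 1 set of arrays and were not tested.

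The gap between GFP negative replicates 3 and 2 was also read by complex, as a description without a test. Its median was 0.78 (1.71-fold) for complex I, 0.69 for complex III, 0.56 for complex V and 0.70 for the assembly factors. It was 0.27 for complex II and 0.13 for complex IV, and 0.13 over all genes tested. The ranges of the complexes overlapped, with −0.50 to 1.24 in complex IV and −0.16 to 1.61 in complex I. The chosen probe sets differed in brightness, with a median level of 13.37 in complex IV and 12.96 in complex V. It was 12.33 in complex I, 12.02 in complex II, 11.76 in complex III and 9.21 in the assembly factors. The part of brightness in the gaps was not tested. These gaps depended in part on the probe set. Of the 12 others of complex IV above the filter 10 read higher on replicate 3, with a median gap of 0.49. In complex I it was 30 of 34, with 0.65. The others gave 0.54 for complex III, 0.46 for complex V, 0.06 for complex II and 0.09 for the assembly factors (2 of 4 higher). With the gap averaged over the probe sets of each gene, the median was 0.22 for complex IV and 0.73 for complex I. Ndufaf8, a partner of Ndufaf5, had the widest gap. It read 9.14, 7.91 and 10.13 on GFP negative replicates 1, 2 and 3, which is 4.66-fold between the last pair, while its GFP positive arrays read 9.29, 9.08 and 9.13. Ndufa6, an accessory subunit of complex I, read 10.70, 10.00 and 11.61, and Uqcr11, a small subunit of complex III, read 11.23, 10.45 and 12.03 on the same arrays. These 3 genes were named after their values were seen.

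**Figure D3:**
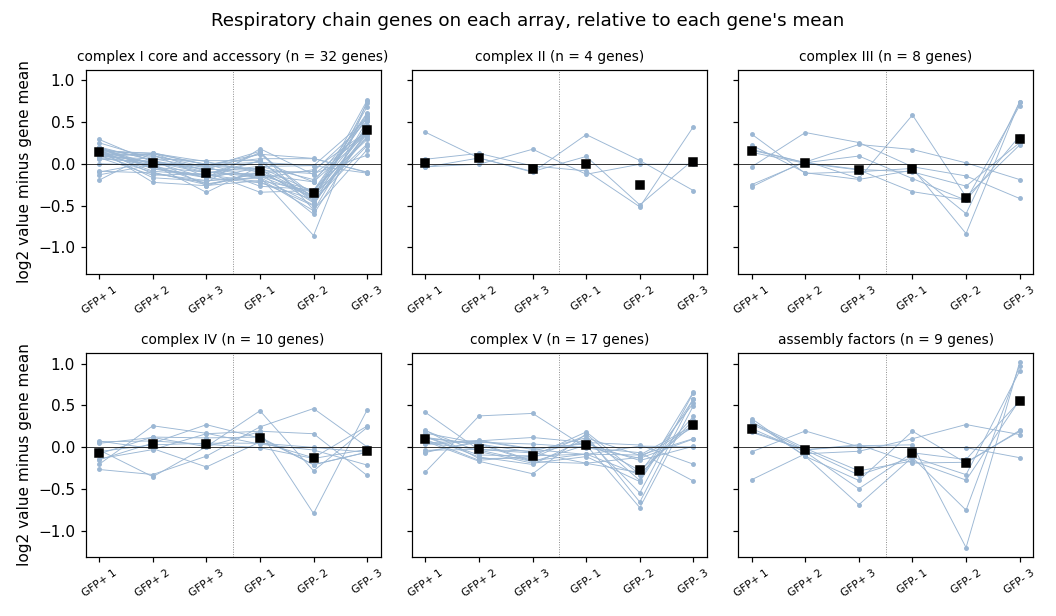
Log2 value minus the gene's mean over the 6 arrays (y axis) on each array (x axis, GFP positive left and GFP negative right of the dotted line), with 1 thin line per tested gene and black squares for the median of the complex. The median of complex I is −0.35 on GFP negative replicate 2 and 0.40 on GFP negative replicate 3, while that of complex IV stays between −0.13 and 0.12.

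A minority of 16 members went the other way, with GFP negative replicate 3 below replicate 2. They were Cox5a, Cox6a1, Cox6c and Cox7c of complex IV, Atp5a1, Atp5md and Atp5o of complex V, Ndufa9, Ndufb6 and Ndufc2 of complex I, Uqcrb and Uqcrc2, Sdha and Sdhd, and the assembly factors Ndufaf1 and Ndufaf4, with Sdha and Atp5a1 lower by at most 0.01. For 13 of the 16 a second probe set lay above the filter, and for 11 of these 13 at least 1 such probe set read higher on replicate 3. Uqcrc2 is an example, with −0.28 on the chosen probe set and 0.48 on the other, and Atp5o gave −0.34 and 0.40. In all, 13 of the 16 other probe sets of these genes read higher on replicate 3. Some did so by little: 0.01 on 1 probe set of Cox5a, 0.04 for Cox6a1, 0.06 for Sdha and 0.08 for Sdhd.

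The within-group differences of the members were also compared between the GFP negative and GFP positive groups. Of the 65 members that read higher on GFP negative replicate 3 than on replicate 2, 60 (92.3%) also read higher on GFP positive replicate 1 than on replicate 3, against 77.2% of such genes among all tested. Both pairs of arrays were chosen after the values were seen, for the highest and lowest medians of the members in each group. That choice favours a larger share among members than among all genes tested, so the 2 shares are not a fair comparison. Across the 81 members the 2 within-group differences had a Pearson r of 0.66 and a Spearman rho of 0.67, and across all 10531 genes tested both were 0.50. These are correlations across genes on shared arrays, and genes are not independent replicates.

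**Figure D4:**
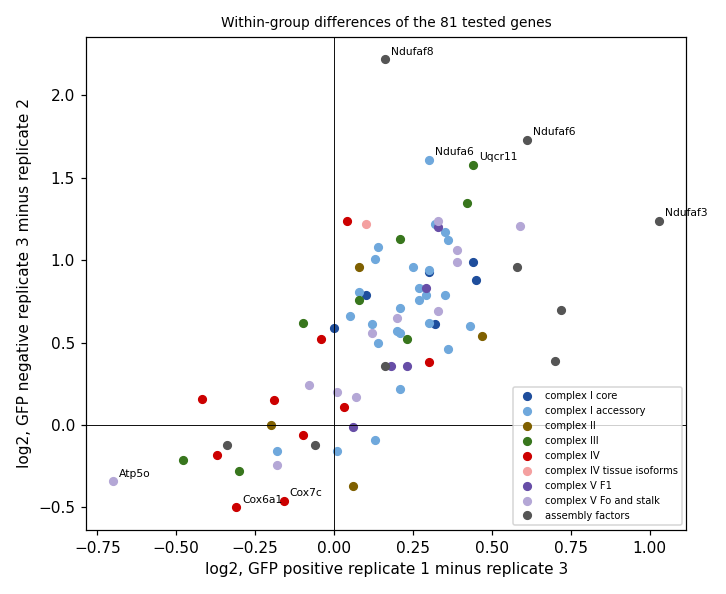
Difference in log2 value between GFP positive replicates 1 and 3 (x axis) and between GFP negative replicates 3 and 2 (y axis) for the 81 tested genes, 1 point per gene, coloured by class. Of the 65 points above the horizontal line 60 also lie to the right of the vertical one, and Cox6a1, Cox7c and Atp5o lie at the lower left.

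The excess of 3′ over 5′ signal, averaged over the Gapdh and beta-actin controls, was 2.49 on GFP negative replicate 2 on the log2 scale and 1.82 on replicate 3. It lay between 1.51 and 1.63 on the other 4 arrays. The array on which most members were lowest thus had the highest ratio, and the array on which most were highest had the next highest. The part of this ratio in the values was not tested beyond the fit that follows. With this ratio as a covariate the members' median difference was −0.12, with 19 above 0 and 62 below, and 0 members passed. The direction of the members as a group followed the GFP negative arrays kept: the median was −0.16 without GFP negative replicate 2 (23 above 0 and 58 below) and 0.16 without GFP negative replicate 3 (62 above and 19 below). The median over all genes tested was 0.00 and 0.05 in these fits. The count of members past the threshold was 0 in each fit with 1 array left out, except for Cox6b2 without GFP negative replicate 3.

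The promoters of the members were searched for letters of factors known to bind respiratory genes, as a description of their sequence. A window from 250 bases before to 50 after a gene's start was held in RefSeq sequence of mouse assembly GRCm38.p6 for 74 of the 90 members (79 windows). The letters CGCATGCG, the core read by the nuclear respiratory factor NRF1 and the same on both strands, stood in 10 member windows (12.7%), against 4.0% of windows of all genes tested and 1.9% of all 32851 windows. The longer form with G before and C after the core, which was searched first, stood in 6 member windows (7.6%), against 2.2% and 1.0%. CCGGAAG, the core of ETS factors such as GABPA (nuclear respiratory factor 2), stood on either strand in 24.1% of member windows, against 17.8% and 8.9%. AAGATGGC, read by YY1, stood in 12.7%, against 4.6% and 2.7%. The Sp1 letters GGGCGG stood in 45.6%, below the 63.9% of windows of all genes tested and above the 35.7% of all windows. CCAAT stood in 41.8%, 38.0% and 37.4%, and TATAAA in 11.4%, 6.9% and 13.6%. Matches of letters are a description, not binding, and the shares were not tested.

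Of the 10 members, 7 hold the NRF1 letters before their start, and their stretches are shown because this motif, in either form, had the largest ratio to the background of the 6 searched. Sequences run 5′ to 3′ on the strand of the gene, with the NRF1 letters in capitals and, in Atp5l, also ETS letters. Atp5g2 lies at chr15:102671048-102671133 (minus strand), Atp5j at chr16:84835071-84835168 (minus), Atp5k at chr5:108434400-108434493 (minus), Atp5l at chr9:44920931-44920992 (minus). Cox6a1 lies at chr5:115349067-115349164 (minus), Ndufa8 at chr2:36049339-36049392 (minus) and Ndufaf4 at chr4:24897926-24898023 (plus). Ndufaf5, Uqcr11 and Uqcrc1 hold the letters elsewhere in the window.
Atp5g2: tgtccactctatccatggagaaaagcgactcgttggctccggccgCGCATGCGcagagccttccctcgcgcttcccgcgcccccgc
Atp5j: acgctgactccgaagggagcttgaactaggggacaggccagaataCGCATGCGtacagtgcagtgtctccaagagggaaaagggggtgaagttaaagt
Atp5k: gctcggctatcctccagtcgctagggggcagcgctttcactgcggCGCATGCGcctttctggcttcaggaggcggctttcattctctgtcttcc
Atp5l: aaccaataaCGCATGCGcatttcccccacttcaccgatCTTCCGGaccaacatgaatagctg
Cox6a1: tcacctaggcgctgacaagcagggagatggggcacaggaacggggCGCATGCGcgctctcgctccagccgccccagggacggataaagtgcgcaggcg
Ndufa8: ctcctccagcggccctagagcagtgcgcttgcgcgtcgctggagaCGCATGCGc
Ndufaf4: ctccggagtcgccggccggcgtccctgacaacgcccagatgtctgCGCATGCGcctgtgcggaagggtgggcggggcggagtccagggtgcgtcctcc
Most of these genes read higher on GFP negative replicate 3 than on replicate 2, as did 80.2% of all members tested. Atp5g2 and Atp5k read 1.24 and 1.21 higher on GFP negative replicate 3 than on replicate 2, and Ndufa8, Atp5l and Atp5j 0.79, 0.65 and 0.56 higher. Cox6a1 and Ndufaf4 went the other way, with −0.50 and −0.12, while another probe set of each gave 0.04 and −0.01. Uqcr11, Uqcrc1 and Ndufaf5, whose stretches are not shown, read 1.58, 1.13 and 0.70 higher on replicate 3. A link between the letters and these gaps was not tested.

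The pair Cox6b1 and Cox6b2 is shown because only the first is a widely expressed form, though both were read well above background. The stretches are the last 100 bases before each start, at chr7:30626115-30626214 and chr7:4753095-4753194, both on the minus strand, with ETS letters in capitals.
Cox6b1: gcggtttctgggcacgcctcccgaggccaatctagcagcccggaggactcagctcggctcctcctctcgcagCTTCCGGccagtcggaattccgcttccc
Cox6b2: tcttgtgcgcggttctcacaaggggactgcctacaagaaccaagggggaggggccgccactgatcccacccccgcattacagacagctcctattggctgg
Cox6b1 holds the reverse complement of the ETS letters and Cox6b2 none in this stretch. No match says only that these letters are not in this window.

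Genes around the chain, listed by function, did not pass either. Of 15 tested partners of the chain, such as the ubiquinone synthesis enzymes and the electron carriers that feed it, 0 passed (median difference 0.16), and limma's unadjusted p was under 0.05 for 1 above and 1 below. Gpd2, the glycerol 3-phosphate dehydrogenase that passes electrons to ubiquinone, read 13.69, 13.65 and 13.90 in GFP positive and 13.34, 12.55 and 12.82 in GFP negative cells. All GFP positive arrays lay above, as for 13.8% of all genes tested (0.84, or 1.79-fold, SE 0.24, limma adjusted p = 0.105). Gpd2 passed when its probe sets were averaged (0.94, limma adjusted p = 0.0397), with trend and robust settings (0.84, 0.0422) and with array weights (0.80, 0.0365). Those fits called 328, 246 and 1051 of all genes tested higher, against 248 in the main fit. The GFP positive values of the last rest largely on 1 array. Gpd2 did not pass with any 1 array left out. Dhodh, the pyrimidine enzyme that also reduces ubiquinone, read 5.37, 6.12 and 5.48 against 6.42, 6.23 and 7.08. All its GFP positive arrays lay below, as for 11.5% of all genes tested (−0.92, SE 0.30, limma adjusted p = 0.151). Cycs, cytochrome c itself, differed by −0.38 (SE 0.29) and Cyc1, the cytochrome c1 of complex III, by −0.13 (SE 0.21). ND5, a complex I subunit encoded in mitochondrial DNA and named after its value was seen, differed by 0.18 (SE 0.18).

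Of 34 tested assembly factors outside the naming rule 0 passed (median −0.02, 16 above 0 and 18 below), with 1 below at an unadjusted limma p under 0.05 and 0 above. Cox10 and Cox18, needed to make heme A and to insert a core subunit of complex IV, had the largest differences, −0.71 (SE 0.30, limma adjusted p = 0.262) and −0.59 (SE 0.28). Sdhaf2, which attaches the flavin to Sdha, passed without GFP negative replicate 3 (0.72, limma adjusted p = 0.0387) and with array weights (0.73, 0.0361). Those fits called 801 and 1051 of 10531 genes tested higher. Sdhaf2 was named after its value was seen and differed by 0.37 on all arrays. Of 22 tested genes of mitochondrial DNA expression and biogenesis 0 passed (median −0.01, 11 above 0 and 11 below), with 1 above and 1 below unadjusted. Ppargc1a, a coactivator of mitochondrial biogenesis, read 11.80, 12.06 and 12.08 in GFP positive and 11.42, 11.72 and 11.27 in GFP negative cells. All its GFP positive arrays lay above, as for 13.8% of all genes tested (0.51, SE 0.19, limma adjusted p = 0.22). Pprc1, a related coactivator known from growing cells, read 7.58, 7.46 and 7.45 against 7.76, 8.04 and 8.62. All its GFP positive arrays lay below, as for 11.5% of all genes tested (−0.65, SE 0.24, limma adjusted p = 0.213). Tfam, which packages mitochondrial DNA, differed by −0.36 (SE 0.18), Nrf1 by −0.03 (SE 0.30) and Mterf2, a mitochondrial transcription factor, by 0.60 (SE 0.29).

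Of 20 tested membrane and import genes 0 passed (median −0.07, 7 above 0 and 13 below), with 1 below at an unadjusted limma p under 0.05 and 0 above. Tomm40, the channel of the outer membrane, and Timm50, a receptor of the inner one, differed by −0.54 (SE 0.51) and −0.53 (SE 0.38), and GFP negative replicate 3 was the highest array for both. Of 8 tested genes of uncoupling and chain protection 0 passed, with none at an unadjusted p under 0.05. Gpx4, which reduces lipid peroxides, differed by 0.40 (SE 0.27). Slc25a27, an uncoupling protein of brain, differed by −0.54 (SE 0.48). It passed with array weights (−1.09, limma adjusted p = 0.0397) and without GFP negative replicate 3 (−1.09, 0.0496). Those fits called 603 and 443 of 10531 genes tested lower.

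Of 11 markers of neural stem cells with a probe set 10 reached the level needed for the test, as did 10531 of all 18193 genes. Vim, Fabp7 and Slc1a3 had the highest means, while Hes5 lay near the filter (mean 4.79) and Prom1 near background (2.53 and 3.00). Of the 10 tested, 2 were higher in GFP positive cells, Nr2e1 and Gfap, which is also in the astrocyte list. The list's median difference was 0.45, with 8 above 0 and 2 below, among them Nes (−0.49, SE 0.25). The count higher was 0 without any 1 of the GFP positive arrays and 1 without GFP negative replicate 1 or 2. Mitosis and astrocyte markers also differed between the groups in the same fit. Of 19 mitosis genes 18 were lower in GFP positive cells (median −1.74), and the list's mean log2 level was 6.09 to 6.91 over the GFP positive arrays and 8.02 to 8.65 over the others. Of 11 tested astrocyte markers 6 were higher (median 1.20), with mean levels of 10.62 to 10.75 against 9.33 to 9.65. These counts depended on the arrays: with 1 array left out they ran from 0 to 19 for mitosis and 0 to 8 for astrocyte genes. They were 0 without GFP positive replicate 1 and without GFP positive replicate 3 for both lists, and without GFP positive replicate 2 for the astrocyte list. The mitosis count was 8 without GFP positive replicate 2 and 2 without the filter. It was 12 when GFP negative replicate 1 was left out and 1 when replicate 2 of that group was. The astrocyte count was 3 without GFP negative replicate 2 and also 3 without the filter. Both were 0 with the replicate block and with the 3′ to 5′ covariate. The medians stayed between −1.89 and −1.60 and between 1.02 and 1.27 over the arrays left out. For other cell types 4 of 10 neuron, 5 of 9 oligodendrocyte, 2 of 10 microglia and 1 of 10 endothelial and pericyte markers passed the filter. Those that did include bright ones: Map2 and Prox1 of the neuron list had means of 12.63 and 11.52, and Cnp, Olig2 and Olig1 of the oligodendrocyte list 12.72, 12.68 and 12.41. Cd68 of the microglia list had a mean of 6.97. The mature-cell markers Rbfox3, Mbp, Cx3cr1 and Pecam1 had group means of 2.10 to 2.76, but not all neuron markers lay at that level. Syn1 had group means of 6.88 in GFP positive and 7.28 in GFP negative cells and did not pass. Snap25 read 2.84, 2.96 and 3.02 in GFP positive and 3.92, 4.26 and 3.81 in GFP negative cells. All its GFP positive arrays lay below (−1.05), but Snap25 did not reach the filter and was not tested. Of these lists 1 gene passed the test, Acta2 of smooth muscle and pericytes, which was lower (−1.29, SE 0.26, limma adjusted p = 0.0413). It did not pass without any 1 of the GFP positive arrays or without GFP negative replicate 2. Neurod1 (−1.06) and Cspg4 (−1.31) did not pass. Thrsp, the gene of the reporter, differed by 0.65 (SE 0.17, limma adjusted p = 0.0893). The part of these cell states in the values of the respiratory chain was not tested.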

How the data were processed

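Total RNA of 6 samples, 3 Spot14 GFP positive and 3 Spot14 GFP negative, was read on Affymetrix mouse arrays. The deposited values are log2 expression per probe set. The submitters' processing notes name GCRMA as the authors' method, with no version or genome build. GCRMA scales all arrays to a common distribution, so a shift of all genes would not be seen, and it holds dim probe sets near a floor. Array medians were 3.55 to 3.66, and the number of arrays limits the precision. Of 45101 probe sets 34945 named exactly 1 gene in the platform annotation, and all 90 members were found by gene identifier in RefSeq.

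The test was limma 3.58.1 (R 4.3.3), fitted with lmFit and eBayes without covariates, over 10531 genes with log2 4 or more on at least 3 arrays, with Benjamini-Hochberg adjustment and a threshold of 0.05. The script was tested on simulated data. Members, lists and tests were chosen with earlier results of these data known. Genes named were those past the threshold, the 3 largest differences and highest mean of each class, all paralogs and complex II, and from each pathway list those past the threshold or else the 2 largest differences, plus Cyc1, Cycs, Ppargc1a, Tfam and Nrf1. Marker lists give up to 3 by highest mean. Hes5, Prom1, Nes, Neurod1, Snap25, Cspg4, Rbfox3, Mbp, Cx3cr1 and Pecam1 of these lists were named afterwards, outside this rule. A few genes outside the marker lists are marked as named afterwards. Alternatives were other filters (none or log2 6), scalings, probe sets, eBayes settings, array weights, a replicate block, the 3′ to 5′ covariate and each array left out. The labels state no pairing, and the replicate numbers were not taken as pairs. Deviations of same-numbered arrays from their group means had correlations of −0.253, 0.053 and −0.50. With 3 arrays per group these cannot decide whether such samples were prepared together. The fit with the replicate block is given below.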

Additional observations from a re-analysis of the deposited data

How the results depend on the processing

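Over 16 alternatives no member was past the threshold in all but 2. The count of members higher was 1 without GFP negative replicate 3 (Cox6b2; range 0 to 1 over the arrays left out) and the count lower was 1 with array weights (Cox7c); the counts lower were 0 to 0 over the arrays left out. With the replicate block, 0 members were higher and 0 lower, and the lowest limma adjusted p of a member was 0.532. The block cut the calls over all genes tested from 248 higher and 222 lower to 19 and 8. The same counts were 193 and 101 with no filter, 1051 and 603 with array weights and 9 and 0 with the 3′ to 5′ covariate, and ran from 1 to 801 and 0 to 443 over the arrays left out. The median difference of complex II was −0.05 with the 3′ to 5′ covariate. Over the arrays left out the medians ran from −0.16 to 0.16 for all members, −0.17 to 0.23 for complex I, 0.01 to 0.22 for complex II, −0.10 to 0.30 for complex III, 0.00 to 0.11 for complex IV, −0.14 to 0.10 for complex V and −0.30 to 0.09 for assembly factors. A common median raised the members' median to 0.08 and that of all genes tested to 0.07. Among 847 pairs of a named gene and an alternative, 64 changed sign with no call in either fit and 7 gained a call, not counting Sdhaf2, which the rule did not name. The cause was not tested. For 44 members with several probe sets above the filter, 19 had probe sets of opposite sign, with a median gap of 0.12, so signs of small differences carry little.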
